A study of Homo sapiens with 6 samples.

Results

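Translation initiation and elongation factors were followed in 12Z after exposure to frankincense, the resin of Boswellia trees. 12Z is a line made by immortalizing cells from human endometriosis, so all libraries come from 1 cell line. The members were the protein-coding genes named EIF1 to EIF6 or EEF1 to EEF2, with 9 genes left out by name (EIF2AK1 to EIF2AK4, EIF2S1, EIF2B1, EIF2B2, EIF2B4 and EEF1E1), with pseudogenes dropped and with a mean of at least 10 expected counts per library. This gave 57 of the 60616 genes in the files, and all 57 also passed the filter on low counts. A further 5 genes met the name rule but averaged fewer than 10 counts: EIF1AY, EIF4E1B, EIF4E3 and the readthrough genes EEF1AKMT4-ECE2 and EEF1E1-BLOC1S5. Because of the omitted genes, eIF2 lacked its alpha subunit and eIF2B was represented by its gamma and epsilon subunits alone. The groups were 3 libraries from cells given frankincense extract at 70 ug/mL in DMSO for 12 h, and 3 libraries from vehicle cells given DMSO. Both groups were wild-type cells of the same line in medium with 10% charcoal-stripped serum. The labels do not say whether the replicates were separate cultures, so the p-values measure the spread between these libraries, which may be technical.

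Translation initiation begins when eIF1, eIF1A, eIF3, eIF5 and eIF2 carrying GTP and the initiator tRNA assemble on the small ribosomal subunit. The eIF4F complex, made of the cap-binding protein eIF4E, the scaffold eIF4G and the helicase eIF4A, brings the mRNA, and the 4E-BP proteins block this by occupying eIF4E until mTORC1 phosphorylates them. In elongation eEF1A delivers aminoacyl-tRNA, eEF1B recharges eEF1A with GTP, and eEF2 moves the ribosome along the mRNA.

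The promoters of the members with the largest changes that had an entry in the RefSeq table (GRCh38.p14) are shown, so that the elements searched for below can be seen in place. Each is the stretch of 250 bases before the annotated start, 5′ to 3′ along the gene. EIF5 lies on the plus strand at chr14:103333987-103334236, EIF3J on the plus strand at chr15:44536897-44537146 and EIF2B3 on the minus strand at chr1:44986596-44986845. EIF4EBP3 is at chr5:140547412-140547661, EIF4EBP2 at chr10:70403895-70404144 and EIF4E2 at chr2:232550439-232550688, all on the plus strand. The table gave 2 starts for EIF5 and for EIF4E2, and 1 of them is printed. Capitals mark the letters CACGTG (the E-box), TGACNNNGC (the core of the antioxidant response element) and CCAAT (the CCAAT box), searched on both strands, so that a match on the other strand reads as its reverse complement.
EIF5: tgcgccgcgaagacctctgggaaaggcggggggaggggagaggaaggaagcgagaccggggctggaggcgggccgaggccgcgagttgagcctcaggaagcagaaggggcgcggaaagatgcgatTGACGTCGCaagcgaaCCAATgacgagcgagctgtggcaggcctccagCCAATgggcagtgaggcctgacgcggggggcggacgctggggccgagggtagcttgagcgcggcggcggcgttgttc
EIF3J: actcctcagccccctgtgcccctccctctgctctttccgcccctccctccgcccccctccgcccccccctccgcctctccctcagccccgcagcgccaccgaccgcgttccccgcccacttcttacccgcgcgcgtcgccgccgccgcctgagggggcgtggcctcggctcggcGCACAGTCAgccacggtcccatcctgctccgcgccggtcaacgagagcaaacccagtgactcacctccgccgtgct
EIF2B3: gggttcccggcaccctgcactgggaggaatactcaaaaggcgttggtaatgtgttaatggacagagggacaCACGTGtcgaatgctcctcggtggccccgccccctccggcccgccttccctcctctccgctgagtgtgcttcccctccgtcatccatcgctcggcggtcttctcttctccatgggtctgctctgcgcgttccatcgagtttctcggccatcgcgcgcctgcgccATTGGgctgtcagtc
EIF4EBP3: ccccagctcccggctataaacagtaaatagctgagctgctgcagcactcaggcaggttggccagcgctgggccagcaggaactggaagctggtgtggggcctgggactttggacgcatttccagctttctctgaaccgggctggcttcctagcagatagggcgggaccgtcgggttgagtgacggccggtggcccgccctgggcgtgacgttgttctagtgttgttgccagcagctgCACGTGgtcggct
EIF4EBP2: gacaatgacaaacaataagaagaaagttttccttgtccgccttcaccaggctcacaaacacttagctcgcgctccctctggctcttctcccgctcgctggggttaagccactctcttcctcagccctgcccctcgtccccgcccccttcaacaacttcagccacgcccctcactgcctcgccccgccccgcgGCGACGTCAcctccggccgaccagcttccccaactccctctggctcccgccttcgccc
EIF4E2: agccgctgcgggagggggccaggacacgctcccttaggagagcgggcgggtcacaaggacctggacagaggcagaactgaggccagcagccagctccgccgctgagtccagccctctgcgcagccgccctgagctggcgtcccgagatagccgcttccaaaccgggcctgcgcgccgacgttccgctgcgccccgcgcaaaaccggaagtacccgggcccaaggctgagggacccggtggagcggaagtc

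In these 6 windows the EIF5 promoter held 1 antioxidant response element core and 2 CCAAT boxes, and no 2 printed matches overlapped. EIF3J and EIF4EBP2, which moved in opposite directions, each held 1 antioxidant response element core. EIF2B3 held 1 E-box and 1 CCAAT box, EIF4EBP3 held 1 E-box, and the EIF4E2 window held none of the searched letters. Over all 44 members with an entry, 29.5% had an E-box in at least 1 of their windows, against 7.73% of the 27305 genes in the table. The antioxidant response element core was found in 25.0% of these members and in 13.2% of the genes in the table, and the CCAAT box in 40.9% of the members and 37.0% of the genes. The core of the C/EBP-ATF element, TGATGNAA, was found in 0 of the 44 members and in 3.89% of the genes. The table was not limited to the 16719 genes tested here. These shares are therefore not matched for expression or for the number of starts per gene. The E-box was present in 4 of 18 members with higher counts, 2 of 6 with lower counts and 7 of 20 that passed neither threshold. A match describes these letters alone and says nothing of which factor, if any, binds there.

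Depth ranged from 22615150 to 27615196 expected counts per library. On the first principal component (74.2% of the variance) the groups separated, and the second (7.99%) set frankincense replicate 3 apart. Mitochondrial genes took 9.50 to 11.0% of counts in frankincense libraries and 14.0 to 14.7% in vehicle libraries. Of the markers examined, the mesenchymal VIM (vimentin) was at 1943 to 2013 TPM in frankincense libraries and 2017 to 2096 TPM in vehicle libraries. The epithelial keratin KRT8 was at 678.1 to 687.8 TPM, KRT18 at 546.3 to 608.2 TPM and KRT19 at 113.8 to 122.9 TPM in frankincense libraries, against 766.4 to 779.5, 651.6 to 668.6 and 145.0 to 156.0 TPM in vehicle libraries. These 4 were thus abundant in all 6 libraries and lower in frankincense libraries without overlap, whereas KRT7, CDH2, EPCAM and CD68 were higher without overlap. KRT7 was at 11.7 to 14.2 TPM in frankincense libraries and 5.74 to 5.92 TPM in vehicle libraries, and the mesenchymal cadherin CDH2 at 74.2 to 102.3 TPM and 53.0 to 61.5 TPM in the same order. The epithelial EPCAM was at 1.75 to 2.18 TPM in frankincense libraries and 0.92 to 1.37 TPM in vehicle libraries. The epithelial cadherin CDH1 was near 0 (at most 0.23 TPM), the endothelial CDH5 was at 0, and PECAM1, VWF, PTPRC, DES and MYH11 stayed below 1 TPM. CD68, which immune cells also express, was at 34.5 to 63.6 TPM in frankincense libraries and 28.2 to 30.8 TPM in vehicle libraries, and the part of these markers in the results was not tested. In bulk RNA a change in the mix of cells and a change in RNA per cell cannot be told apart.

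After frankincense, 23 of the 57 translation factor mRNAs rose, 9 fell and 25 did not pass the test (edgeR quasi-likelihood test on counts, adjusted p under 0.05 over 16719 genes). Over all genes tested, 62.9% changed: 31.9% rose and 31.0% fell. The median log2 fold change of the members was 0.13, and that of all genes was 0.00. The median absolute log2 change of the members was 0.18, against 0.37 for all genes. This comparison was not matched for expression level, and scatter at low counts can raise an absolute change. Only 5 of the members averaged under 100 counts. Only 4 of the 57 members passed the test and moved by 2-fold or more: EEF2KMT, EIF5, EIF4EBP1 and EIF3J, all of them upwards. Over all genes 5.14% rose and 7.11% fell by that much, or 12.2% in either direction. A further 22 of the 32 members that changed moved by less than 1.5-fold. The matching share of all genes was not counted.

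The balance of rises and falls depended on the scale. On TPM, which sums to the same total in each library, the median gene was shifted by 0.20 on the log2 scale, and 40 members were called higher and 2 lower (limma on log2(TPM + 1)), against 44.2% and 14.9% of all genes. With mitochondrial genes left out of the TPM total the shift of the median gene was 0.05, and 28 members were higher and 5 lower, against 30.9% and 22.7%. With counts scaled by library size in place of trimmed means of M values (TMM), 34 members were higher and 6 lower, against 37.1% and 26.1% of all genes, whose median shifted by 0.075. Summed over the members, expression was 15466 to 16358 TPM in frankincense libraries and 11579 to 12112 TPM in vehicle libraries. As a share of counts outside mitochondrial genes the members took 1.80 to 1.91% in frankincense libraries and 1.60 to 1.64% in vehicle libraries, so the groups did not overlap on this measure either.

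**Figure D1:**
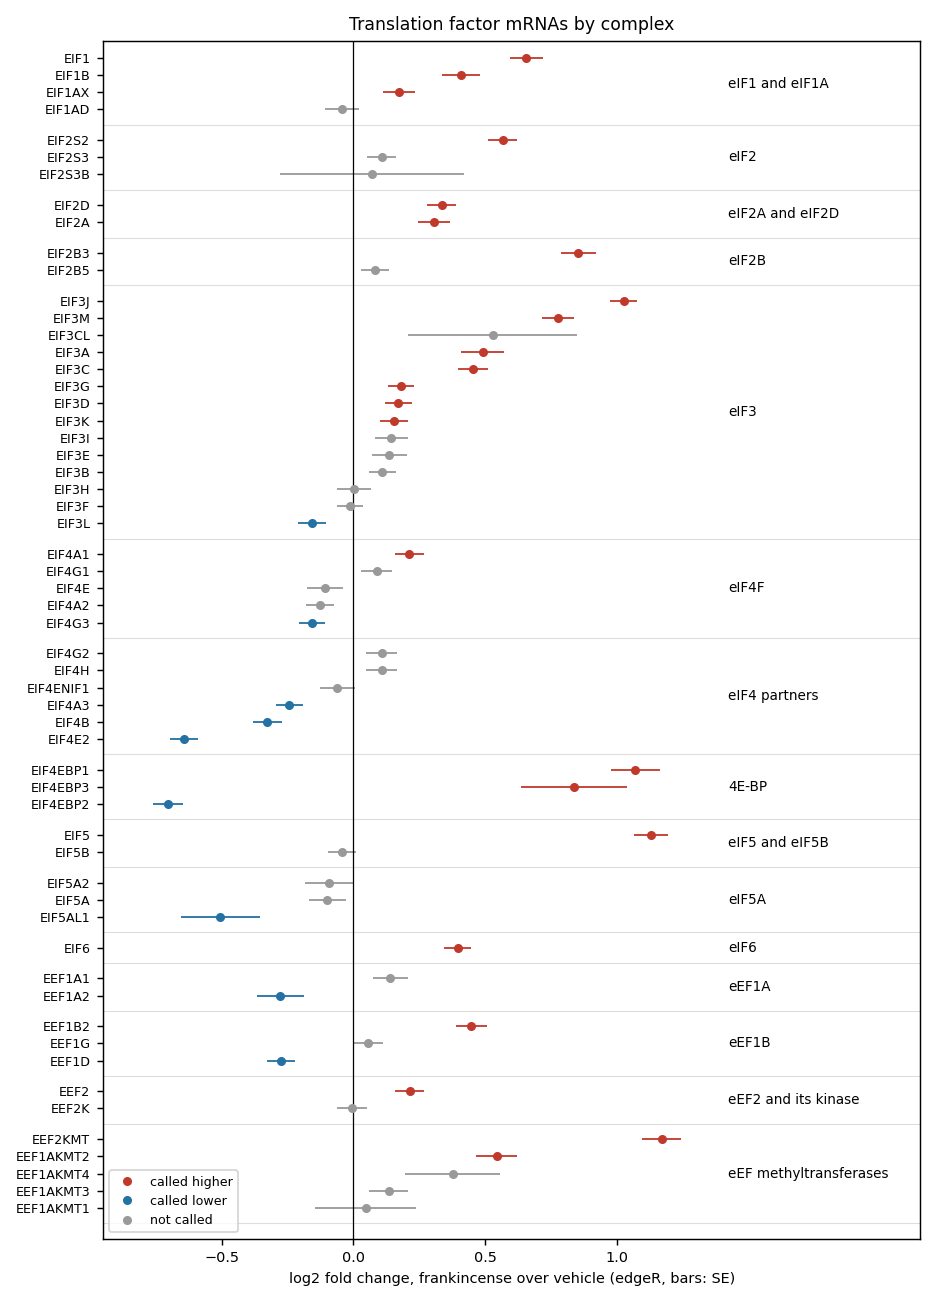
Each point is 1 of the 57 members, grouped by complex, with its log2 fold change in counts (frankincense over vehicle, 3 libraries each) on the horizontal axis and a bar of 1 standard error to each side. Red points rose, blue points fell and grey points passed neither threshold; the 4 members beyond 1.0 on the log2 scale are EEF2KMT, EIF5, EIF4EBP1 and EIF3J.

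The 3 mRNAs of the 4E-BP family, the inhibitors of eIF4E, changed in both directions: EIF4EBP1 and EIF4EBP3 rose while EIF4EBP2 fell. EIF4EBP1 had 234.8, 232.1 and 182.5 normalised CPM (reads scaled to a common library size) in frankincense libraries, against 107.5, 106.6 and 95.6 CPM in vehicle libraries. Every frankincense library lay above every vehicle library, and frankincense replicate 3 was the lowest of its group. The log2 fold change of EIF4EBP1 was 1.07 ± 0.094 (SE; edgeR adjusted p = 3.4e-06). Among the members, 28 had all frankincense libraries above and 10 had them all below the vehicle libraries in CPM; over all genes these were 34.0% and 33.5%, or 67.5% in either direction.

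EIF4EBP2 had 49.5, 48.9 and 44.5 CPM in frankincense libraries, against 76.4, 75.9 and 80.6 CPM in vehicle libraries, a log2 fold change of -0.70 ± 0.058 (edgeR adjusted p = 8.1e-08). The groups were well apart, and the fall was also called on TPM, at a log2 difference of -0.42. EIF4EBP3 was rare, at 3.29, 3.91 and 4.18 CPM in frankincense libraries and 1.54, 2.02 and 2.77 CPM in vehicle libraries, with a log2 fold change of 0.84 ± 0.20 (edgeR adjusted p = 0.0023). Its groups did not overlap, but for its level the vehicle libraries differed more than those of the other 4E-BP genes. EIF4EBP3 shares sequence with the readthrough gene ANKHD1-EIF4EBP3, so its reads could be split between them; ANKHD1-EIF4EBP3 itself averaged 41.2 ± 1.38 CPM in frankincense libraries and 45.2 ± 3.63 CPM in vehicle libraries (SD, n = 3 each; edgeR adjusted p = 0.097).

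Per length, EIF4EBP1 was by far the most abundant of the family, at 464.6 ± 39.9 TPM in frankincense libraries and 187.5 ± 10.4 TPM in vehicle libraries (SD, n = 3 each). EIF4EBP2 was at 9.15 ± 0.0473 TPM in frankincense libraries and 12.6 ± 0.596 TPM in vehicle libraries. The summed TPM of the 3 genes, 439.7 to 507.2 in frankincense libraries and 195.8 to 212.5 in vehicle libraries, therefore followed EIF4EBP1. The target of these proteins, EIF4E, had 26.2, 24.3 and 28.0 CPM in frankincense libraries and 28.0, 28.3 and 28.3 CPM in vehicle libraries. The third frankincense library lay with the vehicle libraries, and EIF4E did not pass the test (log2 fold change -0.11 ± 0.068, edgeR adjusted p = 0.19). The ratio of EIF4EBP1 to EIF4E within a library was 20.7, 19.6 and 15.3 in frankincense libraries, against 7.4, 7.5 and 7.1 in vehicle libraries, in TPM. That ratio was 2.51-fold higher with frankincense and its groups did not overlap, but 3 against 3 libraries cannot give less than p = 0.1 in a two-sided exact permutation test, and p = 0.1 was found (0.2 after adjustment over 8 ratios).

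**Figure D2:**
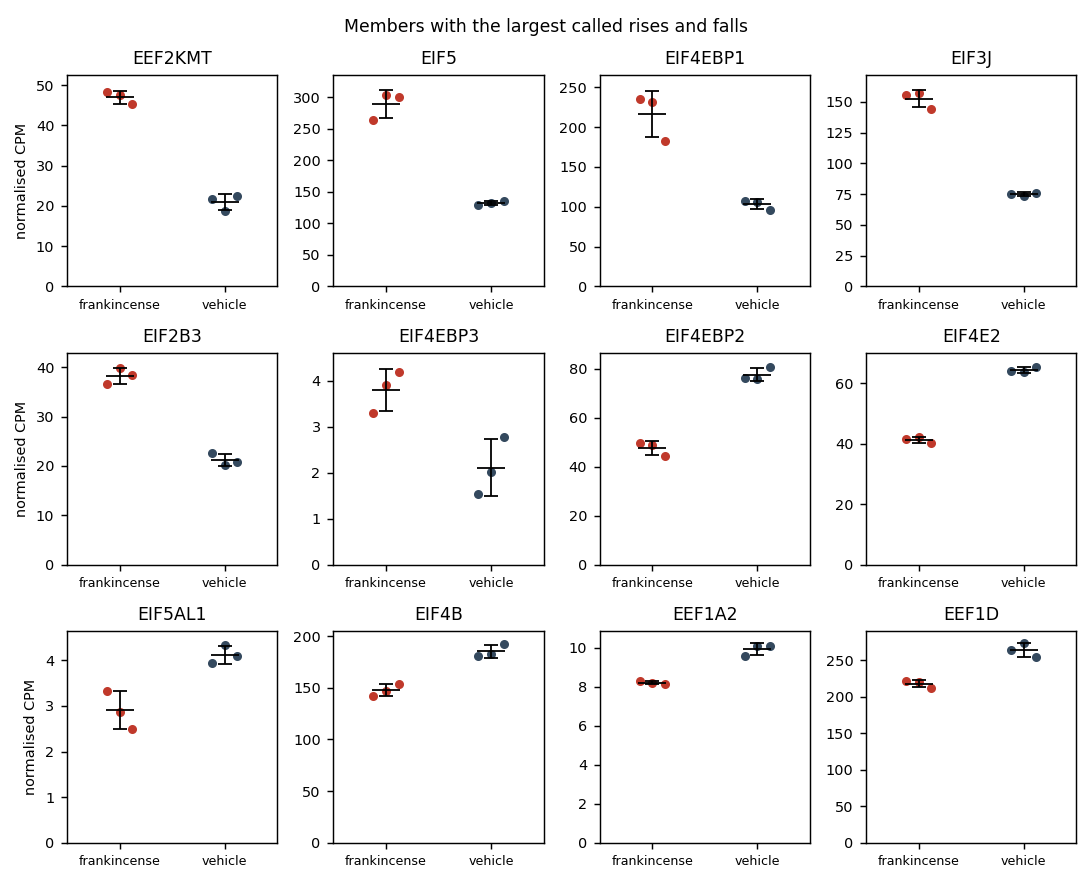
Each panel shows normalised CPM of 1 member in the 3 frankincense libraries (red, left) and the 3 vehicle libraries (dark blue, right), with the mean and 1 SD. The panels are the 6 largest rises (EEF2KMT to EIF4EBP3) and the 6 largest falls (EIF4EBP2 to EEF1D) among members that passed the test without overlap between the groups.

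The eIF4F subunits themselves moved little. Of its 5 genes 1 rose (EIF4A1, the main eIF4A helicase) and 1 fell (EIF4G3), against 31.9% and 31.0% of all genes. On TPM 2 were called higher and 0 lower, against 44.2% and 14.9% of all genes. The median log2 change over the complex was -0.11 in counts and 0.13 on TPM. EIF4A1 had 839.9, 884.9 and 858.2 CPM in frankincense libraries, against 741.6, 742.2 and 747.3 CPM in vehicle libraries (log2 fold change 0.21 ± 0.055, edgeR adjusted p = 0.0038). Its paralog EIF4A2 had 409.7, 400.9 and 413.5 CPM in frankincense libraries and 450.6, 440.3 and 445.1 CPM in vehicle libraries. The frankincense libraries thus lay above the vehicle libraries for EIF4A1 and below them for EIF4A2, although EIF4A2 missed the threshold (log2 fold change -0.13 ± 0.053, edgeR adjusted p = 0.051). EIF4A2 was called lower under 5 alternatives, among them DESeq2 (adjusted p = 0.0152) and leaving out frankincense replicate 3 (0.0054; up to 0.50 over all alternatives), while its plain TPM difference was positive, at 0.13, and not called. The ratio of EIF4A2 to EIF4A1 does not depend on library scaling and was 0.367, 0.337 and 0.374 in frankincense libraries, against 0.455, 0.441 and 0.440 in vehicle libraries (two-sided exact permutation p = 0.1, the smallest possible; 0.2 adjusted).

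The scaffold EIF4G1 had 280.5, 285.1 and 315.6 CPM in frankincense libraries, against 274.9, 278.6 and 275.3 CPM in vehicle libraries. The groups did not overlap, but the difference rested mostly on frankincense replicate 3 and was not called (log2 fold change 0.09 ± 0.059, edgeR adjusted p = 0.21). EIF4G1 was called higher on plain TPM (0.18) and with library size scaling (0.165). It was not called on TPM without mitochondrial genes (-0.01). EIF4G3, a paralog of EIF4G1, fell by 0.16 on the log2 scale (edgeR adjusted p = 0.012), a sign that turned on TPM (0.11, not called). EIF4G2, a relative of EIF4G1 that does not bind eIF4E, had a log2 fold change of 0.11 (edgeR adjusted p = 0.14), and its ratio to EIF4G1 overlapped between the groups (two-sided exact permutation p = 0.3).

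Of the 6 genes grouped here as eIF4 partners, which are not all cofactors of eIF4F, 3 fell and 0 rose, against 31.0% and 31.9% of all genes. EIF4E2, a cap-binding relative of eIF4E known for silencing mRNAs rather than recruiting ribosomes, had 41.4, 42.2 and 40.1 CPM in frankincense libraries, against 63.9, 63.7 and 65.5 CPM in vehicle libraries. The libraries of each group lay close together and far from the other group, with a log2 fold change of -0.64 ± 0.053 (edgeR adjusted p = 9.1e-08) and a TPM difference of -0.30 that was also called. EIF4B, a cofactor of the eIF4A helicase, had 142.0, 146.6 and 153.9 CPM in frankincense libraries, against 180.3, 182.2 and 192.6 CPM in vehicle libraries (log2 fold change -0.33 ± 0.055, edgeR adjusted p = 0.00011). EIF4A3, the helicase of the exon junction complex and not a cap-binding cofactor, fell by 0.24 on the log2 scale (edgeR adjusted p = 0.00082). On TPM the EIF4B and EIF4A3 differences were -0.09 and 0.00 and were not called. On plain TPM 2 of the 6 genes were called higher and 1 lower, against 44.2% and 14.9% of all genes. With mitochondrial genes left out of the total, 3 of the 6 were again called lower and 1 was called higher. Over all genes these shares were 22.7% and 30.9%. EIF4H, which shares the cofactor role of EIF4B, and EIF4ENIF1, which carries eIF4E into the nucleus, did not pass the test (log2 fold changes 0.11 and -0.06). EIF4H was called higher under 5 alternatives, among them plain TPM (0.34) and TPM without mitochondrial genes (0.15).

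Of the 4 genes of eIF1 and eIF1A, which scan for the start codon, 3 rose and 0 fell, against 31.9% and 31.0% of all genes. EIF1AD, a relative of eIF1A, was not called (log2 fold change -0.04, and 0.18 on TPM). EIF1, which guards against initiation at wrong codons, had 715.1, 784.1 and 678.2 CPM in frankincense libraries, against 458.5, 461.2 and 462.6 CPM in vehicle libraries. The vehicle libraries were nearly equal and all frankincense libraries stood above them (log2 fold change 0.66 ± 0.062, edgeR adjusted p = 3.9e-07). EIF1B, a close relative of EIF1, rose by less (0.41 ± 0.072, edgeR adjusted p = 0.00017). The ratio of EIF1B to EIF1 was 0.0701, 0.0664 and 0.0626 in frankincense libraries and 0.0853, 0.0806 and 0.0804 in vehicle libraries, without overlap (two-sided exact permutation p = 0.1, the smallest possible; 0.2 adjusted). EIF1AX, the eIF1A gene, was called higher at 0.17 (edgeR adjusted p = 0.024), but not when frankincense replicate 1 or 2, or vehicle replicate 1 or 2, was left out (adjusted p = 0.0564, 0.0621, 0.149 and 0.106 in that order, and 0.00075 at the lowest over all alternatives).

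EIF5, the factor that makes eIF2 hydrolyse its GTP at the start codon, was the second largest rise. It had 264.7, 304.0 and 300.1 CPM in frankincense libraries, against 128.9, 132.4 and 136.0 CPM in vehicle libraries, a log2 fold change of 1.13 ± 0.063 (edgeR adjusted p = 1.5e-09). The lowest frankincense library was far above the highest vehicle library. On TPM the difference of EIF5 was larger, at 1.69, with 137.9, 178.8 and 189.3 TPM in frankincense libraries and 49.3, 50.9 and 53.8 TPM in vehicle libraries. EIF5B, the GTPase that joins the ribosomal subunits, had a log2 fold change of -0.04 ± 0.052 in counts (edgeR adjusted p = 0.48) and 0.19 on TPM, where it was called.

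TPM divides by length, and the length of EIF5 differed between the groups. RSEM gives each gene a length averaged over its transcripts by abundance, and for EIF5 this was 2779, 2506 and 2544 bases in frankincense libraries, against 3302, 3207 and 3220 bases in vehicle libraries. All frankincense libraries were shorter, by 0.31 on the log2 scale; 1.59% of all genes had a shortening at least as large without overlap. EIF5 was picked out here after its values were seen. GENCODE release 29 lists 21 EIF5 transcripts, of which 3 exceed 1000 bases, at 5945, 4384 and 3417 bases. Among the members 9 were longer and 6 shorter in frankincense libraries without overlap, and 42 overlapped; over all genes tested, 6.69% were longer and 10.2% shorter, or 16.9% in either direction. EIF4G1 was longer, at 2200, 2222 and 2473 bases in frankincense libraries and 2102, 2040 and 2107 bases in vehicle libraries, while EEF1A2 was shorter, at 1661, 1597 and 1416 bases in frankincense libraries and 1687, 1785 and 1790 bases in vehicle libraries. Which transcripts these lengths stand for was not tested, since the values are per gene.

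**Figure D3:**
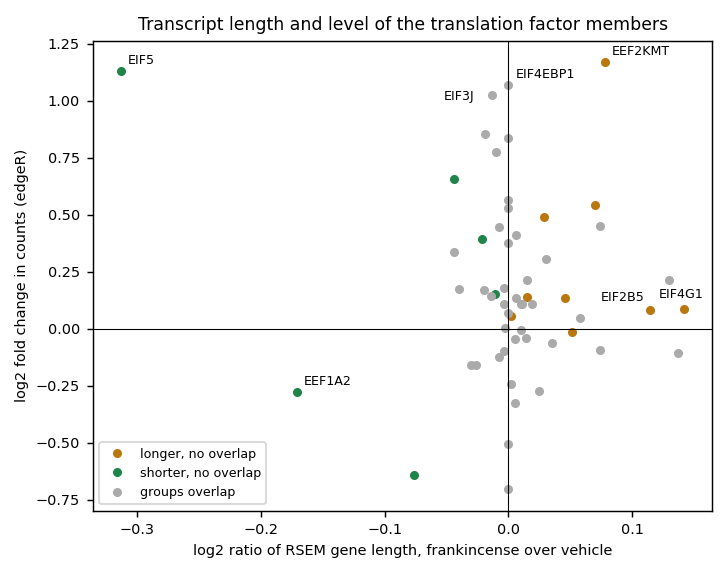
Each point is 1 of the 57 members, with the log2 ratio of its RSEM length (frankincense over vehicle, means of 3 libraries) on the horizontal axis and its log2 fold change in counts on the vertical axis. Coloured points are genes whose lengths did not overlap between the groups; EIF5 lies alone at the upper left, with a length ratio of -0.31 and a log2 fold change of 1.13.

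Of the 3 eIF2 genes, EIF2S2, the beta subunit that EIF5 contacts, rose. It had 265.4, 294.1 and 280.2 CPM in frankincense libraries, against 185.5, 190.8 and 191.0 CPM in vehicle libraries (log2 fold change 0.57 ± 0.056, edgeR adjusted p = 6.5e-07). EIF2S3, the gamma subunit that holds GTP and the tRNA, had 266.3, 286.9 and 268.3 CPM in frankincense libraries and 247.8, 258.3 and 256.2 CPM in vehicle libraries. The groups of EIF2S3 did not overlap, but it did not pass the test (log2 fold change 0.11 ± 0.055, edgeR adjusted p = 0.10). EIF2S3 was called higher under 5 alternatives, among them plain TPM (0.35) and TPM without mitochondrial genes (0.17). Its adjusted p was 0.0011 to 0.3 over all alternatives. EIF2S3 and its near copy EIF2S3B share reads that RSEM divides, so the split between them is uncertain; EIF2S3B had a log2 fold change of 0.07 ± 0.35.

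EIF2B3, the gamma subunit of the exchange factor that reloads eIF2 with GTP, had 36.7, 39.9 and 38.4 CPM in frankincense libraries, against 22.6, 20.2 and 20.9 CPM in vehicle libraries. The groups stood well apart (log2 fold change 0.85 ± 0.067, edgeR adjusted p = 5.1e-08). EIF2B5, the catalytic epsilon subunit, had a log2 fold change of 0.08 ± 0.054 (edgeR adjusted p = 0.20). EIF2D and EIF2A, which are able to bring tRNA to the ribosome without eIF2, both rose. EIF2D had 81.4, 78.4 and 73.5 CPM in frankincense libraries and 61.6, 62.3 and 61.1 CPM in vehicle libraries (log2 fold change 0.33 ± 0.054, edgeR adjusted p = 7.9e-05), and EIF2A a log2 fold change of 0.30 ± 0.060 (edgeR adjusted p = 0.00044).

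Of the 14 eIF3 genes, the largest initiation complex, 7 rose, 1 fell and 6 passed neither threshold, with a median log2 change of 0.16. Over all genes 31.9% rose and 31.0% fell. On TPM 13 were called higher and 0 lower, against 44.2% and 14.9% of all genes. With mitochondrial genes left out of the TPM total 9 were higher and 0 lower, against 30.9% and 22.7%. EIF3J, a loosely held subunit that sits near the mRNA entry channel, had 155.7, 157.6 and 144.4 CPM in frankincense libraries, against 75.2, 73.6 and 76.2 CPM in vehicle libraries. This was the smallest adjusted p of the complex (log2 fold change 1.02 ± 0.052, edgeR adjusted p = 5.5e-10). EIF3M followed, with 209.1, 208.7 and 181.4 CPM in frankincense libraries and 116.2, 114.1 and 119.6 CPM in vehicle libraries (log2 fold change 0.78 ± 0.062, edgeR adjusted p = 6.1e-08). The scaffold subunits EIF3A (0.49 ± 0.082) and EIF3C (0.45 ± 0.057) rose too, whereas EIF3G, EIF3D and EIF3K rose by 0.18, 0.17 and 0.15. The calls of EIF3D and EIF3K did not hold throughout: EIF3D was lost without vehicle replicate 1 or 2 (adjusted p = 0.052 and 0.0504, and 0.00029 at the lowest over all alternatives), and EIF3K without frankincense replicate 1 or 2 or vehicle replicate 2 or 3 (adjusted p = 0.0616 to 0.0892, and 0.00011 at the lowest over all alternatives). EIF3L fell by 0.16 (edgeR adjusted p = 0.017), which was lost without frankincense replicate 1 (adjusted p = 0.0581) or vehicle replicate 3 (0.0851; 0.0049 to 0.49 over all alternatives) and turned positive on TPM (0.12, not called).

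The subunits of eIF3 were not at equal mRNA levels in either group. Leaving out EIF3CL, a near copy of EIF3C whose reads cannot be assigned securely, the 13 subunits ran from EIF3A at 72.2 ± 14.1 TPM to EIF3C at 596.6 ± 32.2 TPM in frankincense libraries, and from EIF3A at 44.1 ± 2.80 TPM to EIF3C at 389.1 ± 7.23 TPM in vehicle libraries (SD, n = 3 each). Set against the median subunit of its own library, EIF3J was at 0.704, 0.667 and 0.675 in frankincense libraries and 0.361, 0.358 and 0.351 in vehicle libraries. EIF3M was at 1.91, 1.90 and 1.78 times the median in frankincense libraries and 1.15, 1.15 and 1.19 times in vehicle libraries. Relative to the median subunit EIF3A and EIF3C were also higher in frankincense libraries without overlap, and EIF3F and EIF3L were lower without overlap. The coefficient of variation among the 13 subunits was 54.4 to 64.7% in frankincense libraries and 55.8 to 56.9% in vehicle libraries, so the groups overlapped in how uneven the subunits were.

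**Figure D4:**
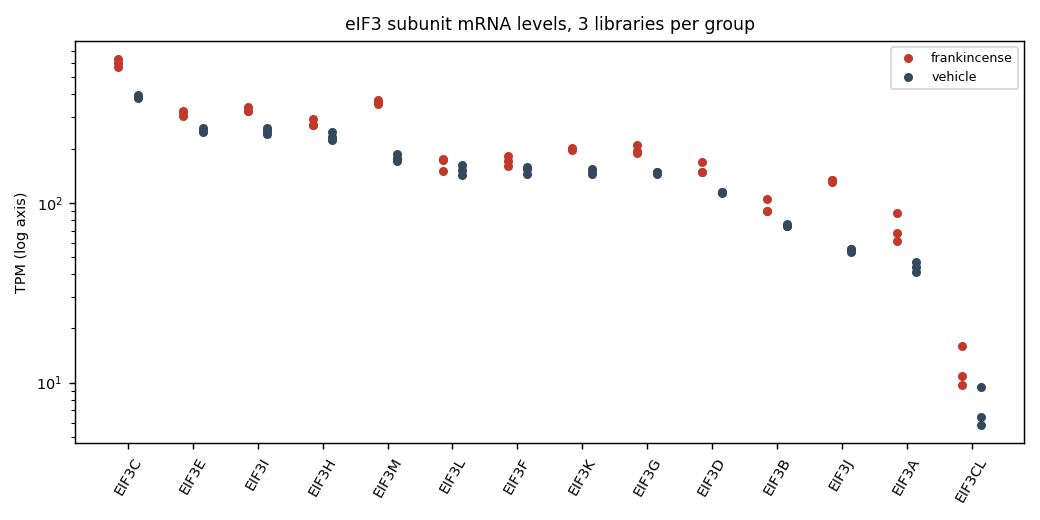
TPM on a log axis of the 14 eIF3 genes in 3 frankincense libraries (red, left) and 3 vehicle libraries (dark blue, right), each point 1 library. EIF3C is the highest and EIF3A the lowest of the 13 subunits other than EIF3CL, and the gap between groups is widest for EIF3J and EIF3M. EIF3C shares reads with EIF3CL and had a short RSEM length (934 to 984 bases in vehicle libraries), so its level is uncertain.

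EIF6, which keeps the large ribosomal subunit from joining the small one too early, had 128.8, 132.2 and 123.1 CPM in frankincense libraries, against 99.5, 99.2 and 93.5 CPM in vehicle libraries. It rose with groups well apart (log2 fold change 0.39 ± 0.051, edgeR adjusted p = 9.6e-06). EIF5A, the hypusine-bearing factor that helps ribosomes through stalling sequences, had 500.8, 496.7 and 415.9 CPM in frankincense libraries and 507.4, 507.1 and 499.9 CPM in vehicle libraries. The lowest value was frankincense replicate 3 and the groups overlapped; EIF5A was not called in counts (log2 fold change -0.10 ± 0.070, edgeR adjusted p = 0.23) and was called higher on TPM, at 0.14. EIF5AL1, a near copy of EIF5A with which reads may be shared, had 3.33, 2.87 and 2.50 CPM in frankincense libraries and 3.93, 4.33 and 4.10 CPM in vehicle libraries (log2 fold change -0.51 ± 0.15, edgeR adjusted p = 0.0096). That fall was not called on TPM (-0.15) or with DESeq2 (adjusted p = 0.0609; 0.0058 to 0.28 over all alternatives). The ratio of EIF5A2 to EIF5A overlapped between the groups (two-sided exact permutation p = 0.8).

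Of the 12 EEF members 4 rose and 2 fell, against 31.9% and 31.0% of all genes. On TPM 8 were called higher and 0 lower, against 44.2% and 14.9%. With mitochondrial genes left out of the TPM total 5 were higher and 1 lower, against 30.9% and 22.7%. Elongation factors make up 6 of the 12, of which 2 rose (EEF1B2 and EEF2) and 2 fell (EEF1A2 and EEF1D). The others are 1 kinase, which did not pass the test, and 5 methyltransferases, of which 2 rose. EEF1A1, which carries aminoacyl-tRNA to the ribosome, was the most abundant member, at 5226.6, 5635.4 and 5079.5 CPM in frankincense libraries and 4693.3, 4753.7 and 5021.0 CPM in vehicle libraries. The groups came close without overlapping, and EEF1A1 was not called (log2 fold change 0.14 ± 0.065, edgeR adjusted p = 0.073), although it was with DESeq2 (adjusted p = 0.0153) and without frankincense replicate 3 (0.000221; up to 0.29 over all alternatives). Its reads may be shared with many processed pseudogenes. EEF1A2, the form known from muscle and neurons, had 8.26, 8.20 and 8.12 CPM in frankincense libraries, against 9.58, 10.1 and 10.1 CPM in vehicle libraries. It fell in counts (log2 fold change -0.28 ± 0.088, edgeR adjusted p = 0.013), but its TPM difference was positive (0.15, not called), its length was shorter as given above, and DESeq2 did not call it (adjusted p = 0.107; 0.0069 to 0.88 over all alternatives).

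The subunits of eEF1B, the exchange factor of eEF1A, split. EEF1B2, a catalytic subunit, had 263.6, 266.0 and 236.8 CPM in frankincense libraries, against 184.6, 189.1 and 188.6 CPM in vehicle libraries, and rose (log2 fold change 0.45 ± 0.059, edgeR adjusted p = 1.1e-05). EEF1D, the other catalytic subunit, had 221.3, 220.3 and 212.0 CPM in frankincense libraries, against 263.4, 273.2 and 254.4 CPM in vehicle libraries, and fell (-0.28 ± 0.054, edgeR adjusted p = 0.00048), and was also called lower on TPM without mitochondrial genes (-0.24), though not on plain TPM (-0.06; adjusted p 8e-07 to 0.38 over all alternatives). EEF1G, the structural subunit, was not called (0.06 ± 0.057, edgeR adjusted p = 0.41). In TPM the order of the catalytic subunits differed between groups: EEF1B2 was at 566.6 ± 6.43 and EEF1D at 436.6 ± 11.8 in frankincense libraries, and EEF1B2 at 348.6 ± 6.05 and EEF1D at 455.0 ± 21.0 in vehicle libraries (SD, n = 3 each).

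EEF2, the translocase, had 1005.5, 1029.4 and 1017.9 CPM in frankincense libraries, against 867.9, 877.4 and 889.1 CPM in vehicle libraries (log2 fold change 0.21 ± 0.055, edgeR adjusted p = 0.0035). The rise of EEF2 was small and its groups did not overlap; on TPM without mitochondrial genes it was 0.13 and no longer called (limma adjusted p = 0.0715, the highest over all alternatives, of which the lowest was 4e-07). EEF2K, the kinase that inactivates eEF2, had 46.2, 48.7 and 46.1 CPM in frankincense libraries and 45.0, 47.5 and 49.0 CPM in vehicle libraries, which overlapped (log2 fold change -0.01 ± 0.057, edgeR adjusted p = 0.94). The largest rise of all members was EEF2KMT, a methyltransferase that modifies a lysine of eEF2. The gene lies on the minus strand at chr16:5084304-5097808 (GRCh38, GENCODE release 29). It had 48.3, 47.5 and 45.2 CPM in frankincense libraries, against 21.8, 18.6 and 22.4 CPM in vehicle libraries (log2 fold change 1.17 ± 0.073, edgeR adjusted p = 4.8e-09). Every frankincense library held more EEF2KMT than any vehicle library by a wide margin. Of the other 4 methyltransferases, which modify eEF1A, EEF1AKMT2 rose (0.54 ± 0.077, edgeR adjusted p = 2.4e-05), and EEF1AKMT1, EEF1AKMT3 and EEF1AKMT4 did not pass the test (0.05, 0.13 and 0.38).

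**Figure D5:**
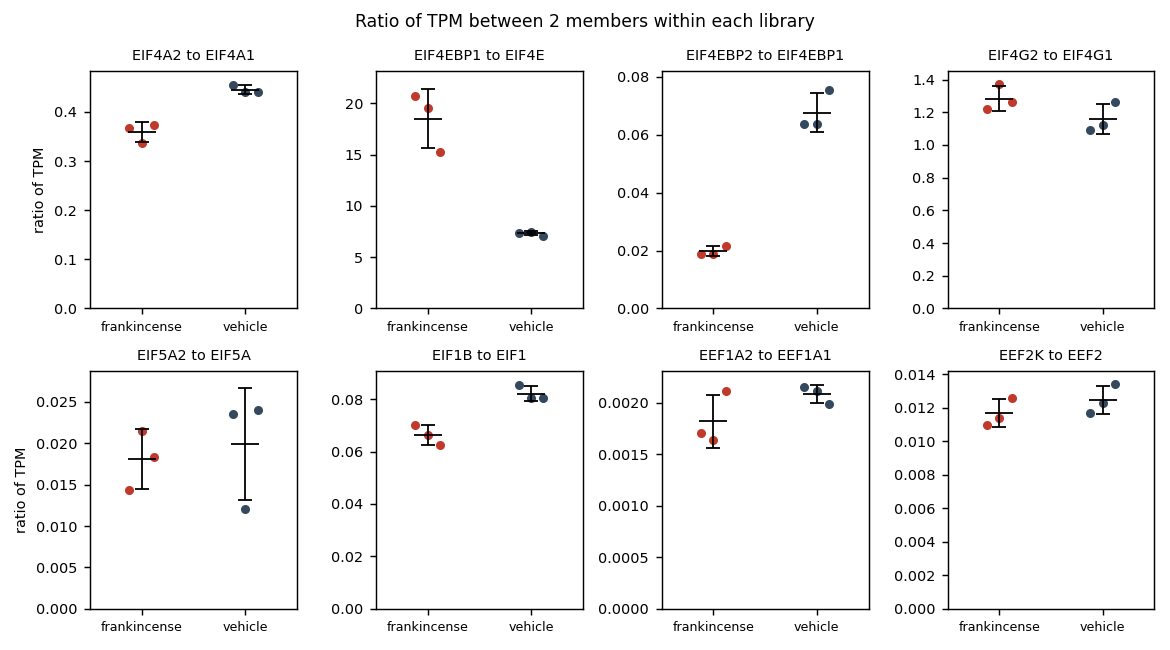
Ratio of TPM between 2 members within each library, in 3 frankincense libraries (red, left) and 3 vehicle libraries (dark blue, right), with the mean and 1 SD; every vertical axis starts at 0. The groups do not overlap for EIF4EBP1 to EIF4E, EIF4EBP2 to EIF4EBP1, EIF4A2 to EIF4A1 and EIF1B to EIF1, and overlap for the other 4 ratios.

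Genes that act on these factors or work beside them were read from a list of 33 genes outside the members. Of these 21 rose, 6 fell and 6 passed neither threshold, with a median log2 change of 0.25. Over all genes 31.9% rose and 31.0% fell. On TPM 25 were called higher and 1 lower, against 44.2% and 14.9% of all genes. With mitochondrial genes left out of the TPM total 19 were higher and 6 lower, against 30.9% and 22.7%. The largest rises included DPH5 (0.85 ± 0.067), DPH2 (0.76 ± 0.065) and DPH6 (0.74 ± 0.14), which serve to build the diphthamide residue of eEF2; DPH1, of the same pathway, did not pass the test (-0.10 ± 0.057, edgeR adjusted p = 0.14). DPH5 had 37.4, 37.8 and 33.8 CPM in frankincense libraries, against 19.7, 20.3 and 20.4 CPM in vehicle libraries, without overlap (edgeR adjusted p = 5.1e-08). The 2 enzymes that make hypusine on eIF5A moved apart: DOHH, the second step, rose by 0.71 ± 0.085 (edgeR adjusted p = 3.9e-06). DHPS, the first step, fell in counts (log2 fold change -0.35 ± 0.061, edgeR adjusted p = 0.00018) and on TPM without mitochondrial genes (-0.33), and was not called on plain TPM (-0.15).

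The largest fall on that list was PDCD4, which binds eIF4A and holds back its helicase. PDCD4 had 43.0, 45.5 and 44.2 CPM in frankincense libraries, against 69.6, 64.7 and 66.2 CPM in vehicle libraries (log2 fold change -0.59 ± 0.055, edgeR adjusted p = 3e-07). It was the gene of the list called lower on plain TPM as well (-0.45); on TPM without mitochondrial genes 6 of the list were called lower. DDX3X, a helicase that aids translation of structured mRNAs, and HBS1L, a ribosome rescue factor, fell in counts by 0.39 and 0.32 (edgeR adjusted p = 6.5e-05 and 0.00038). Both were also called lower on TPM without mitochondrial genes (-0.34 and -0.27), and neither was on plain TPM (-0.15 and -0.09).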

How the data were processed

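RNA of 6 libraries of 12Z cells was sequenced from 1.5 ug of total RNA with a TruSeq RNA kit, per the labels' protocols; strand use is not given in the sources used here, so overlapping and antisense genes are uncertain. STAR, RSEM (1.3.1) and the GRCh38 build are named in the submitters' processing notes. The authors' deposited expected counts are, per the file headers, reads that RSEM assigned to each gene, with shared reads divided, and the deposited TPM values are abundances per length scaled to 1 total per library; the deposited lengths are averages over transcripts. FPKM was not used here. Of 60616 gene IDs, 60419 matched the table of gene names and 58385 a position and type in GENCODE release 29.

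Counts were rounded and fitted with edgeR 4.0.16 in R 4.3.3 (filterByExpr, TMM, robust quasi-likelihood fit, two-sided), with Benjamini-Hochberg adjustment over 16719 genes and calls at adjusted p under 0.05. SE is the absolute log2 fold change divided by the square root of F. CPM is per TMM-scaled library; 3 counts equal 0.109 to 0.133 CPM. TPM was tested with limma 3.58.1 on log2(TPM + 1), which understates changes of low genes. Alternatives were DESeq2 1.42.0, limma-voom, other scalings and filters, a replicate block and leaving out each library. The fit was tested on simulated data.

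The members and lists were chosen with earlier results of these data known. Values per library are given for the 6 largest rises and 6 largest falls among called members without overlap, for a fixed set of factors and for the smallest adjusted p of each complex. No test was run over the members as a set.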

Additional observations from a re-analysis of the deposited data

How the results depend on the processing

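The count of members called higher was 40 and lower 2 on log2(TPM + 1) and likewise 40 and 2 on log2(TPM + 0.1), and 5 were lower on TPM without mitochondrial genes, against 23 and 9; the TPM total shifts the median gene. On TPM with a pseudocount of 1 and of 0.1, in that order, the sign turned for EEF1A2 (0.145, 0.16), EIF3F (0.168, 0.169), EIF3L (0.121, 0.122), EIF4G3 (0.108, 0.111), EIF5A (0.144, 0.144) and EIF5B (0.19, 0.193); without mitochondrial genes none of these 6 was called, and EIF5B alone was above 0 (0.01). The log2 ratio of EIF5A2 to EIF5A was -0.09 and became 0.017 in expected counts; its range on leaving out 1 library was -0.419 to 0.077, and the cause was not tested. Leaving out each library gave 9377 to 11031 genes called, 20 to 32 members higher and 8 to 10 lower, with 32 higher without frankincense replicate 3. DESeq2 called 9258 genes, with 25 members higher and 8 lower. With a replicate block 10591 genes were called, with 24 members higher and 9 lower; EIF3CL was then called (adjusted p = 1.32e-05, against 0.22, and up to 0.40 over all alternatives). Same-numbered libraries deviated together at correlations of 0.05, 0.101 and 0.0352, so the numbers are not taken to pair them. Of the members, 5 average under 100 counts.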

Other observations

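Genes of the same names that are not protein-coding were left out of the members; of these 93 had 0 counts in all 6 libraries and 15 averaged at least 10. The most abundant was EEF1A1P5, a processed pseudogene of EEF1A1, at 67.3, 83.1 and 91.2 TPM in frankincense libraries, against 49.4, 51.1 and 53.5 TPM in vehicle libraries. Another copy, EEF1A1P19, was at 8.62, 8.87 and 8.24 TPM in frankincense libraries and 4.59, 4.75 and 5.01 TPM in vehicle libraries. Both pairs of groups lay apart without overlap, on the TPM scale on which EEF1A1 itself was also called higher. These copies resemble EEF1A1 closely and RSEM divides shared reads among them, so whether they were transcribed was not tested. EIF3J-DT, the divergent transcript beside EIF3J, was at 10.16, 9.89 and 11.7 TPM in frankincense libraries and 10.7, 10.3 and 12.3 TPM in vehicle libraries, which overlapped. On the count scale EIF3J-DT was lower without overlap, at 10.6, 11.1 and 11.6 CPM in frankincense libraries and 13.9, 13.0 and 14.6 CPM in vehicle libraries (log2 fold change -0.32 ± 0.084, edgeR adjusted p = 0.0041), while EIF3J was 2.03-fold higher on that scale. The EIF3J-DT difference was not called on TPM (-0.06) or on TPM without mitochondrial genes (-0.23).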
